A study of Mus musculus with 2 samples.

Results

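Ofcc1, Runx1t1, Adgb, Enpep, Rgs7bp, B4galt6, Slc2a13, Lrrc4c and Eepd1 are 9 genes counted in the visceral fat of young mice. They were chosen because earlier results of these same libraries showed them lower in adipocyte nuclei that hold RNA of Cidea than in the other adipocyte nuclei. Their levels in Cidea nuclei and in adipocyte nuclei are therefore a description here, with no test. The study profiled fat of female C57BL/6J mice at a young and an old age, and the values below come from the visceral (gonadal) fat of 2 untreated mice aged 2 months. Each mouse gave 1 library, VAT young replicates 1 and 2. The methods of the paper give nuclei of whole tissue and the Singleron GEXSCOPE platform. The sample descriptions instead give adipocytes and 10x Genomics. The files do not settle the platform. The nuclei kept below were not adipocytes alone, since adipocyte-like nuclei made up 64.2% of them in replicate 1 and 51.4% in replicate 2.

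White adipocytes store triglyceride in a large lipid droplet, while brown and beige adipocytes burn lipid to make heat and carry Ucp1, the uncoupling protein of their mitochondria. Cidea is a lipid droplet protein typical of brown and beige adipocytes, and it is also found in white fat. The 9 genes share no single pathway. Enpep and Eepd1 encode enzymes, Slc2a13 a transporter, B4galt6 a glycosyltransferase, Rgs7bp and Runx1t1 regulators of signalling and transcription, Lrrc4c a cell surface protein, Adgb an unusual globin, and Ofcc1 a protein whose function is little known.

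Of the called nuclei, 2833 in replicate 1 and 12225 in replicate 2 had over 500 genes, over 1000 UMIs (unique molecular identifiers, each standing for 1 captured RNA molecule) and under 15% mitochondrial UMIs. They held 8466237 and 48068273 UMIs, with a median of 2221 and 2726 UMIs per nucleus. The libraries stand apart in the median mitochondrial share, which was 6.20% in replicate 1 and 0.621% in replicate 2. They share 27 barcode sequences among the nuclei kept.

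Clusters were drawn without Cidea and without the 9 genes, and 6 cell types were named from markers. Adipocyte-like nuclei numbered 1818 and 6280, and all 10 of their markers, Adipoq and Plin1 among them, were highest in these nuclei in both libraries. The other named types were fibro-adipogenic progenitors (FAPs), mesothelial, endothelial and immune nuclei, and a type of smooth muscle cells and pericytes that held 27 nuclei in replicate 1 and 150 in replicate 2. RNA of adipocytes was also present in the nuclei of other types. The summed level of the 10 adipocyte markers in a non-adipocyte type ranged from 12.4% to 33.7% of that in adipocyte-like nuclei of the same library.

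For shares of nuclei with a UMI, each nucleus was thinned at random to 1000 UMIs, so that all nuclei were read at equal depth. An adipocyte-like nucleus with at least 1 Cidea UMI after thinning was called a Cidea nucleus. There were 83 of these in replicate 1, which is 4.57% of adipocyte-like nuclei (exact Clopper-Pearson 95% interval 3.65 to 5.63%), and 209 in replicate 2, which is 3.33% (2.90 to 3.80%). In the non-adipocyte types, 0 to 1.85% of nuclei held a Cidea UMI, and whether these UMIs are background was not tested. The median depth before thinning was 3071 and 5849 UMIs in Cidea nuclei against 2619 and 4836 in the other adipocyte-like nuclei.

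All 9 genes were detected in a smaller share of Cidea nuclei than of the other adipocyte-like nuclei in both libraries. The ratio of the shares, as the median over the 9 genes, was 0.332 in replicate 1 and 0.548 in replicate 2, and 0.432 for the mean of both. Each of the 9 genes had UMIs in Cidea nuclei of both libraries, and whether these are RNA of the nuclei themselves or background was not tested. As the median over the genes, 2.41% of Cidea nuclei in replicate 1 and 6.22% in replicate 2 held a UMI of a given gene, with 3.71% for the means of both libraries. The intervals given with the shares count nuclei of 1 mouse and cover counting error only. With Cidea nuclei defined before thinning, 190 and 655 nuclei, the ratio was 0.580 and the median share in Cidea nuclei 6.22%. With these nuclei and no thinning of the 9 genes either, a reading chosen after seeing the data, it was 0.738.

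**Figure D1:**
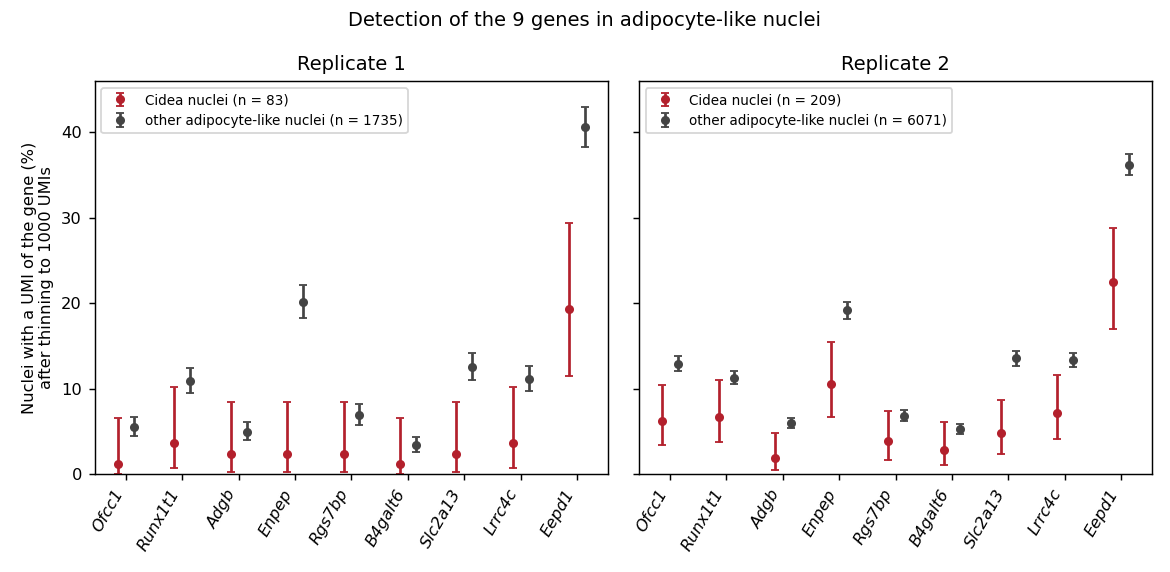
Share of nuclei with a UMI of each of the 9 genes, in percent, after thinning to 1000 UMIs, in Cidea nuclei (red) and other adipocyte-like nuclei (grey) of each library; bars are exact 95% intervals. Every red point lies below its grey point, and for Eepd1 19.3% and 22.5% of Cidea nuclei still hold a UMI.

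Enpep encodes aminopeptidase A, a membrane enzyme that cleaves angiotensin II. Its UMIs were found in 2.41% of Cidea nuclei (0.293 to 8.43%) and 20.2% of the other adipocyte-like nuclei (18.3 to 22.1%) in replicate 1. In replicate 2 the shares were 10.5% (6.72 to 15.5%) and 19.2% (18.2 to 20.2%). The ratio was thus 0.119 in replicate 1 and 0.549 in replicate 2, and the former rests on 2 of 83 nuclei in 1 random thinning. Thinned to 2000 UMIs, the ratios were 0.392 and 0.571. In summed UMIs without thinning the mice were close, with 91.8 and 88.0 CPM (UMIs of the gene divided by all UMIs of the group of nuclei and brought to counts per 1e6) in Cidea nuclei against 243 and 259 in the others.

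Slc2a13 encodes a transporter that takes up myo-inositol together with protons. It was detected in 2.41% (0.293 to 8.43%) and 4.78% (2.32 to 8.62%) of Cidea nuclei, in replicates 1 and 2. The other adipocyte-like nuclei had shares of 12.5% (11.0 to 14.2%) and 13.6% (12.7 to 14.4%). Its ratio was 0.193 and 0.353, with a mean of 0.273, and at 2000 UMIs it was 0.496 and 0.528.

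Eepd1, whose protein has an endonuclease/exonuclease/phosphatase domain and has been linked to cholesterol efflux, is a gene that the study itself set against Cidea, from these samples among others. It was found in 19.3% (11.4 to 29.4%) and 22.5% (17 to 28.8%) of Cidea nuclei. In the other adipocyte-like nuclei the shares were 40.6% (38.3 to 43.0%) and 36.2% (35.0 to 37.4%). Its mean ratio was 0.548, the highest of the 9, while its fitted log2 change in summed UMIs, -1.39, was not the smallest.

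For the remaining 6 genes, the shares in Cidea nuclei rest on 1 to 15 nuclei with a UMI. Lrrc4c, the netrin-G1 ligand of neuronal synapses, was seen in 3.61% and 7.18% of Cidea nuclei against 11.1% and 13.3% of the others. For Runx1t1, a transcriptional co-repressor known from adipogenesis, the shares were 3.61% and 6.70% against 10.9% and 11.3%. Rgs7bp, which anchors regulators of G protein signalling at the membrane, was in 2.41% and 3.83% against 6.92% and 6.79%. These 3 genes had like mean ratios of 0.432, 0.462 and 0.456, although their roles differ.

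Ofcc1 was named for its place near a chromosomal break in orofacial clefting. It was in 1.20% and 6.22% of Cidea nuclei against 5.48% and 12.9% of the others, so that both groups were higher in replicate 2. The share in Cidea nuclei of replicate 1 rests on 1 nucleus, and the ratio there, 0.220, was 0.637 at 2000 UMIs and 0.992 without thinning. Adgb, which encodes androglobin, was in 2.41% and 1.91% against 4.96% and 5.98%. B4galt6, an enzyme that makes lactosylceramide, was in 1.20% and 2.87% against 3.40% and 5.24%. In replicate 1 its share rests on 1 Cidea nucleus.

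The genes were also read by the number of Cidea UMIs, a description in genes chosen as low with Cidea. With 0, 1 and at least 2 Cidea UMIs after thinning, a nucleus of replicate 1 held UMIs of 1.16, 0.426 and 0.333 of the 9 genes on average. In replicate 2 the averages were 1.24, 0.708 and 0.545. Gene by gene, the share fell at each step for 4 of the 9 genes in replicate 1 and 7 in replicate 2, and for Runx1t1, Rgs7bp, Slc2a13 and Eepd1 in both. Lrrc4c rose from 1 to at least 2 Cidea UMIs, from 2.13% to 5.56% of nuclei in replicate 1 and from 5.84% to 10.9% in replicate 2, and Adgb rose at this step in both libraries too. The upper steps rest on few nuclei, 47 and 36 in replicate 1 and 154 and 55 in replicate 2.

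The number of genes per Cidea nucleus was also set beside that of nuclei that are no adipocytes. In the 5 non-adipocyte types, the average was 0.420 to 0.593 genes per nucleus in replicate 1 and 0.611 to 0.747 in replicate 2, against 0.386 and 0.665 in Cidea nuclei. Cidea nuclei thus lay below these types in replicate 1 and among them in replicate 2. For Eepd1 alone, the share in Cidea nuclei was above that of each non-adipocyte type in both libraries, at 19.3% and 22.5% against at most 10.9% and 18.9%.

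Among adipocyte-like nuclei, 4 subclusters held at least 20 nuclei in each library and did not go against the adipocyte name, and 1 of them was rich in Cidea. That subcluster held 136 and 697 nuclei, of which 36.0% and 17.6% had a Cidea UMI after thinning, against 2.02% and 1.54% of the adipocyte-like nuclei outside it. Its leading genes include Ucp1, Esrrg, Dio2 and Acot11. All 9 genes were lowest there among the 4 subclusters in both libraries, and the next lowest subcluster stood 2.15 to 6.33 times higher.

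Cidea nuclei also occur outside the subcluster, at 2.02% in replicate 1, where the non-adipocyte types reach 1.23%, and at 1.54% in replicate 2, where they reach 1.85%. In subcluster 0 the share was 2.88% and 2.19%, above each of these types. Whether such Cidea UMIs are background was not tested. In the Cidea-rich subcluster, nuclei without a Cidea UMI held 0.540 and 0.408 of the 9 genes on average, within the range of the non-adipocyte types in replicate 1 and below it in replicate 2. Nuclei with a Cidea UMI held 0.163 and 0.325 there. Outside it lay 41.0% and 41.1% of the Cidea nuclei, and these held 0.706 and 1.15 genes, against 1.19 and 1.33 in nuclei outside it without a Cidea UMI. Gene by gene, all 9 were lower in these Cidea nuclei in replicate 1. In replicate 2, Runx1t1 was not lower in them, at 12.8% against 12.2%, and neither was B4galt6, at 5.81% against 5.69%. The other genes were lower there, Ofcc1 only barely, at 13.95% against 13.97%. These values only describe, since the genes were chosen as low with Cidea. Nuclei inside the subcluster held fewer of the genes than nuclei outside it, with or without a Cidea UMI. Inside it, nuclei with a Cidea UMI held fewer than those without, at 0.163 against 0.540 in replicate 1 and 0.325 against 0.408 in replicate 2.

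**Figure D2:**
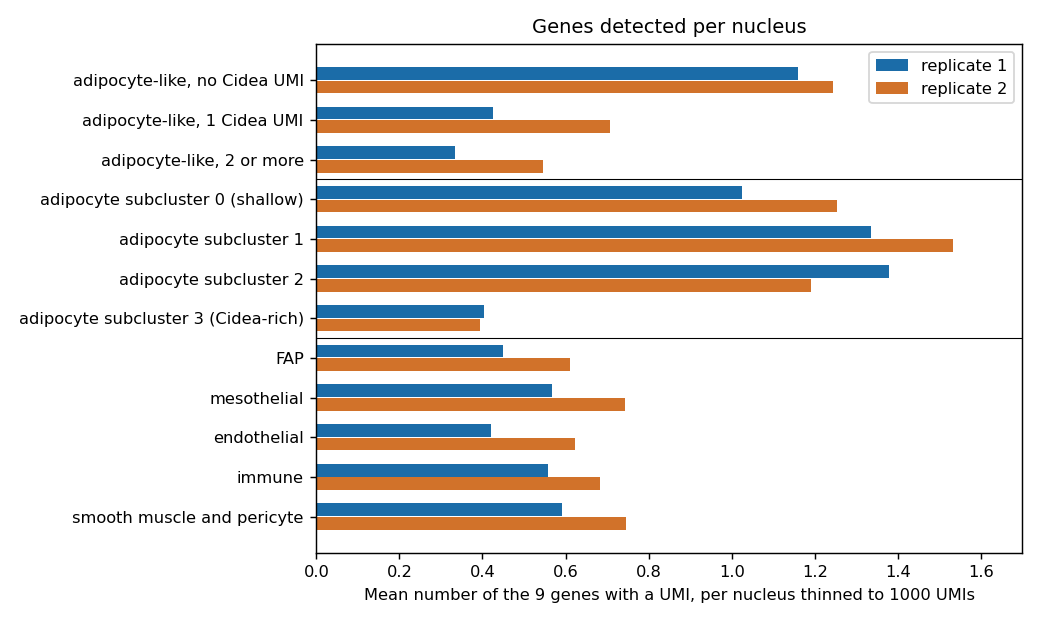
Mean number of the 9 genes with a UMI per nucleus, after thinning to 1000 UMIs, in replicate 1 (blue) and replicate 2 (orange), for adipocyte-like nuclei by number of Cidea UMIs, for adipocyte subclusters and for the other cell types. The Cidea-rich subcluster, at 0.404 and 0.393, lies below all non-adipocyte types.

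The other 3 subclusters also differed in these genes. Ofcc1 and Runx1t1 were highest in subcluster 1 in both libraries, with 107 and 268 CPM for Ofcc1 and 193 and 231 CPM for Runx1t1. Lrrc4c was highest in subcluster 0, the one with the shallowest nuclei, with 143 and 218 CPM. Adgb and B4galt6 were highest in subcluster 2 in both libraries, but there the lowest of the 3 was within 1.33 times. For the remaining 4 genes the highest subcluster was not the same in the libraries. So the 9 genes did not mark a single state among the Cidea-poor adipocytes.

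A view over all genes places the ratios. Of 7505 genes with at least 100 UMIs in adipocyte-like nuclei of each library, 2200, or 29.3%, had a lower share in Cidea nuclei in both libraries, and the median ratio was 0.999. The 9 genes had ratios between the 1.40 and 9.15 percentiles, Slc2a13 at the lower end and Eepd1 at the upper. These places were fixed by how the genes were chosen. The list of the thermogenic programme had 0 of 17 measured genes lower in both libraries, with a median ratio of 2.69, and the white adipocyte list 11 of 13, with a median of 0.742.

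**Figure D3:**
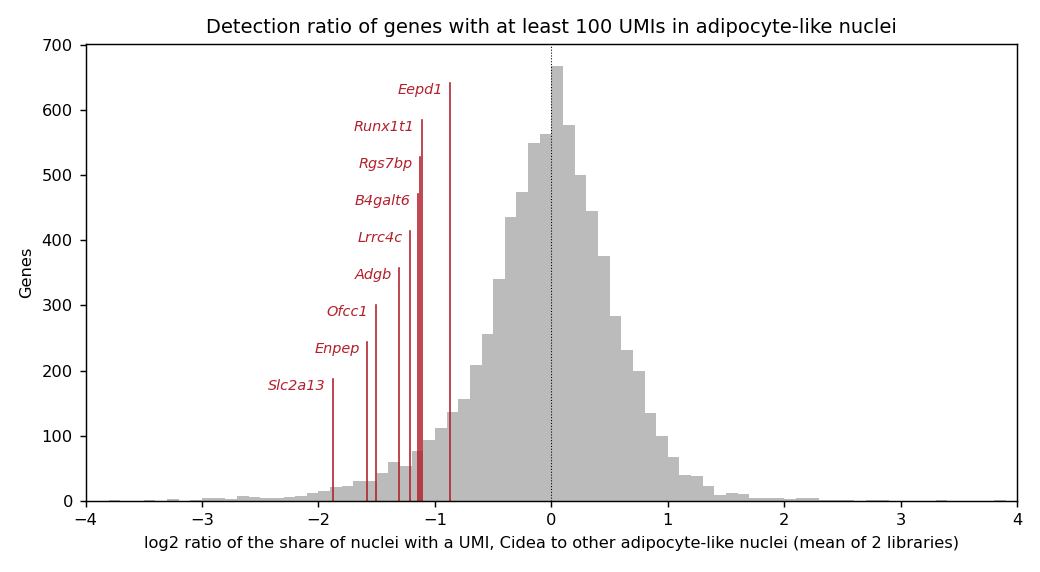
Histogram of the log2 ratio of detection shares, Cidea to other adipocyte-like nuclei, as the mean of both libraries, over genes with at least 100 UMIs in adipocyte-like nuclei of each library; 20 genes with a ratio of 0 are not drawn. The 9 genes (red lines) lie on the left side, from Slc2a13 at a ratio of 0.273 to Eepd1 at 0.548.

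Over the whole tissue, the genes were not confined to adipocytes. Ofcc1, Enpep, Slc2a13 and Eepd1 were highest in adipocyte-like nuclei in both libraries, which makes 4 of 9, while the other 5 had their highest level in another type in at least 1 library. This count turns on few UMIs for some genes, such as the 9 UMIs of Rgs7bp in the smooth muscle type of replicate 1, and it was 5 or 6 with 1 library left out. With a mitochondrial limit of 5% in place of 15% the count was 2, with 5 cell types left.

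Eepd1 had the clearest lead, with 595 and 528 CPM in adipocyte-like nuclei (561 ± 47.8 CPM, SD, n = 2 mice). Endothelial nuclei came next with 163 and 268 CPM, so the adipocyte level was 3.65 and 1.97 times higher. Immune nuclei followed with 127 and 152 CPM, FAPs with 103 and 148, the smooth muscle type with 138 and 63.2 and mesothelial nuclei with 84.9 and 89.6. Below the endothelial nuclei, the order of the types lay within the spread between the mice for some neighbours, and 3 of its 5 neighbouring pairs overlapped.

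Enpep stood at 235 and 252 CPM in adipocyte-like nuclei (244 ± 12.1 CPM, SD, n = 2 mice). FAPs had 156 and 133 CPM, the smooth muscle type 138 and 151, immune nuclei 137 and 140, endothelial nuclei 75.3 and 59.9 and mesothelial nuclei 49.8 and 41.6. The 3 types after adipocytes lay close together, and 2 of the 5 neighbouring pairs overlapped.

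Slc2a13 was nearly as high in other types, with 159 and 155 CPM in adipocyte-like nuclei (157 ± 2.61 CPM, SD, n = 2 mice) and 125 and 128 CPM in endothelial nuclei. Mesothelial nuclei had 114 and 125 CPM, FAPs 65.6 and 104, the smooth muscle type 50 and 72.3 and immune nuclei 27.8 and 74.6. For this gene 2 of the 5 neighbouring pairs overlapped.

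Ofcc1 differed more between the mice than between several types. Adipocyte-like nuclei had 62.2 and 177 CPM (119 ± 80.8 CPM, SD, n = 2 mice), mesothelial nuclei 46.8 and 67.8, the smooth muscle type 0 and 99.4, FAPs 31.8 and 51.0, immune nuclei 25.8 and 55.7 and endothelial nuclei 0 and 37.3. All 5 neighbouring pairs overlapped. In replicate 1, the counts of 0 were read against a floor of 3 counts, which is 18.8 CPM in endothelial nuclei and 37.5 CPM in the smooth muscle type, and their exact Poisson 95% intervals reach 23.1 and 46.1 CPM.

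Among the 5 genes without a lead in adipocytes, B4galt6 was highest in immune nuclei, with 109 and 177 CPM against 44.6 and 53.7 in adipocyte-like nuclei (49.1 ± 6.42 CPM, SD, n = 2 mice). The other types had 38.1 and 29.8 CPM (mesothelial), 37.5 and 24.1 (smooth muscle type), 6.27 and 42.6 (endothelial) and 16.9 and 21.4 (FAPs), and 3 of the 5 neighbouring pairs overlapped. Immune nuclei therefore exceeded adipocyte-like nuclei in each mouse.

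Lrrc4c was highest in mesothelial nuclei, with 200 and 251 CPM, then in the smooth muscle type with 150 and 196. Adipocyte-like nuclei had 114 and 126 CPM (120 ± 8.06 CPM, SD, n = 2 mice), immune nuclei 93.3 and 142, endothelial nuclei 62.7 and 146 and FAPs 45.0 and 114. Here 3 of the 5 neighbouring pairs overlapped, among them adipocyte-like and immune nuclei.

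Runx1t1 was highest in adipocyte-like nuclei in replicate 1 and in the smooth muscle type in replicate 2. Its levels were 134 and 145 CPM in adipocyte-like nuclei (139 ± 7.88 CPM, SD, n = 2 mice), 62.5 and 187 in the smooth muscle type, 93.7 and 150 in FAPs, 52.7 and 130 in mesothelial, 69.0 and 74.6 in endothelial and 29.8 and 35.5 in immune nuclei. Of its 5 neighbouring pairs, 4 overlapped.

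Adgb and Rgs7bp changed their leading type between the mice. Adgb had 75.4 and 51.2 CPM in immune nuclei, 52.5 and 64.9 in adipocyte-like nuclei (58.7 ± 8.78 CPM, SD, n = 2 mice), 36.6 and 46.3 in mesothelial nuclei, 18.7 and 26.8 in FAPs, 12.5 and 17.3 in endothelial nuclei and 0 and 18.1 in the smooth muscle type, where the interval of the 0 reaches 46.1 CPM. Rgs7bp had 113 and 60.2 CPM in the smooth muscle type, 87.1 and 73.6 in adipocyte-like nuclei (80.4 ± 9.54 CPM, SD, n = 2 mice), 27.8 and 45.2 in immune, 25.1 and 45.3 in endothelial and 23.4 and 28.8 in mesothelial nuclei, and 16.9 and 31.1 in FAPs. The neighbouring pairs that overlapped were 2 of 5 for Adgb and 4 of 5 for Rgs7bp.

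**Figure D4:**
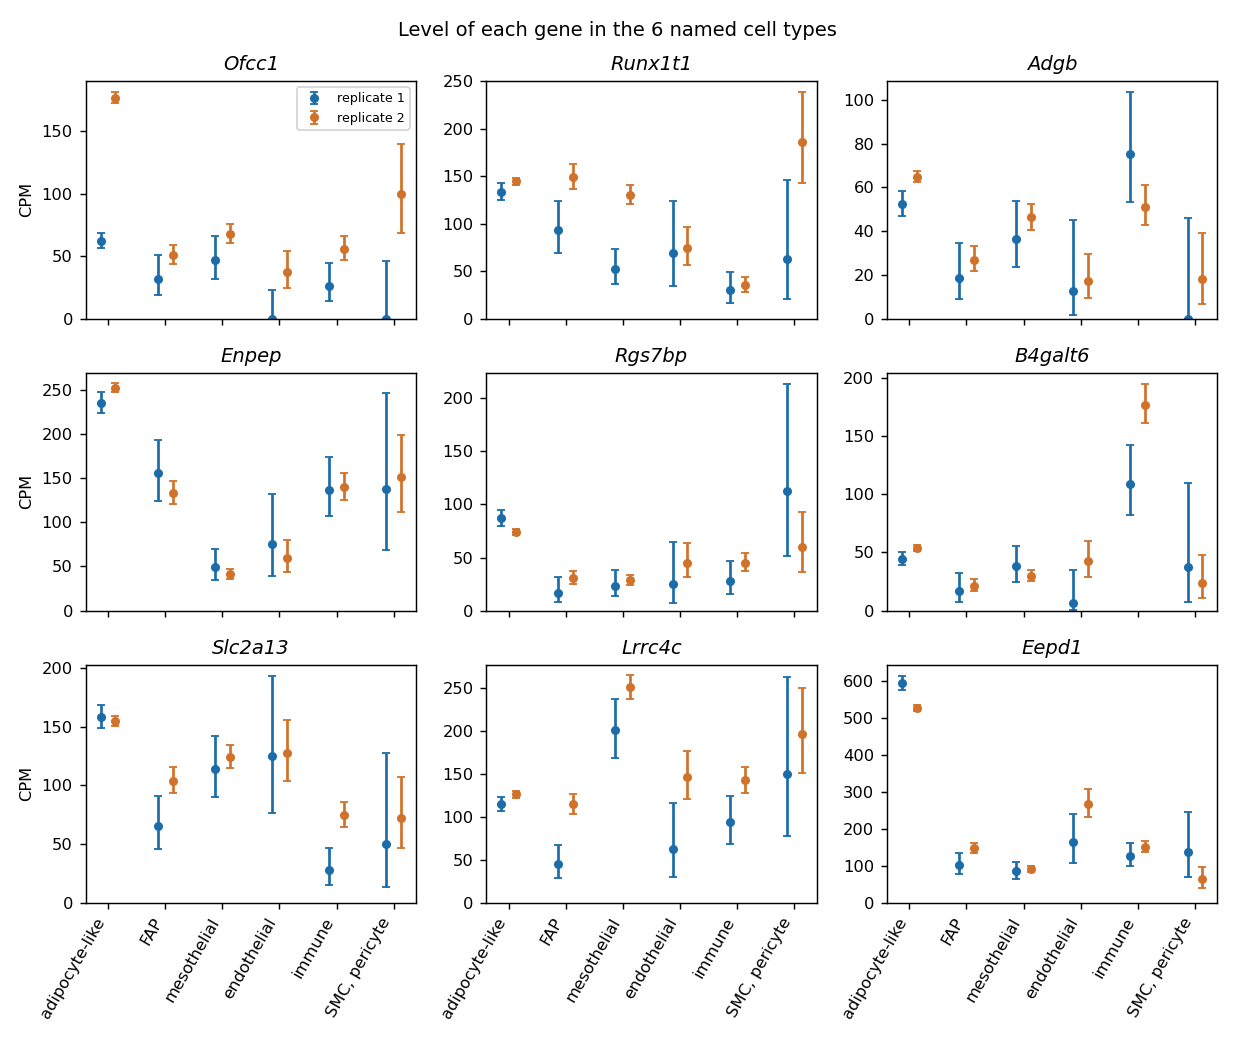
Level of each of the 9 genes in CPM in the 6 named cell types, in replicate 1 (blue) and replicate 2 (orange); bars are exact 95% Poisson intervals for counting error, and each panel has its own scale. Adipocyte-like nuclei lead in both libraries for Ofcc1, Enpep, Slc2a13 and Eepd1, immune nuclei for B4galt6 and mesothelial nuclei for Lrrc4c.

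Levels in the other types were also set beside those of the adipocyte markers. In 15 of 45 pairs of gene and non-adipocyte type, the gene's level, as a percentage of that in adipocyte-like nuclei, was above that of each of the 10 adipocyte markers in both libraries. These pairs covered 7 of the 9 genes, without Ofcc1 and Eepd1. In FAPs, for instance, Runx1t1 stood at 70.2% and 103% of its adipocyte level, against at most 48.5% and 41.6% for a marker. For Ofcc1 and Eepd1, each level in another type was at or below that of the highest marker in at least 1 library. The part of free RNA in these levels was not tested.

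The choice of the genes did not use the differences between non-adipocyte types, so these were tested. UMIs were summed per library, and edgeR set each of the 5 types against the average of the remaining 4, with the library as a block. Of the 9 genes, 7 passed at an adjusted p under 0.05 in at least 1 comparison. That share stands beside 50.3% of all 13254 genes tested, so passing somewhere is no mark of these genes. Ofcc1 and Rgs7bp passed in none, with their lowest adjusted p at 0.0726 and 0.0669.

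In immune nuclei 5 of the 9 genes passed, where 25.2% of all genes did. B4galt6 rose by 2.45 on the log2 scale (SE 0.24, adjusted p = 5.71e-12), and it passed under all 7 alternatives. Adgb rose by 1.46 (SE 0.31, adjusted p = 0.000146), but with a mitochondrial limit of 5% its adjusted p was 0.744, the highest over alternatives that began at 2.19e-05. Runx1t1 fell by 1.71 on the log2 scale (SE 0.28, adjusted p = 2.30e-06) and passed under all 7 alternatives. In both mice, immune nuclei had the most B4galt6 RNA and the least Runx1t1 RNA of the 6 types.

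Enpep and Slc2a13 passed in immune nuclei with smaller changes. Enpep rose by 0.66 on the log2 scale (SE 0.20, adjusted p = 0.00835) and passed under 4 of 7 alternatives, with adjusted p from 0.00450 to 0.707. Slc2a13 fell by 0.77 on the log2 scale (SE 0.24, adjusted p = 0.0113) and passed under 5 of 7, with adjusted p from 0.00299 to 0.0989. The direction was the same under all 7 alternatives for both genes.

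In mesothelial nuclei, the lining cells of the visceral fat surface, 5 of the 9 genes passed, where 27.4% of all genes did. Enpep fell by 1.44 on the log2 scale (SE 0.22, adjusted p = 1.37e-06) and passed under all 7 alternatives. Lrrc4c rose by 0.91 (SE 0.19, adjusted p = 0.000226), and it passed under 5 alternatives, but neither without the library block nor at a clustering resolution of 0.3, with adjusted p from 1.69e-05 to 0.450. Enpep RNA was lowest in mesothelial nuclei among the 6 types in both mice, while the call for Lrrc4c depended on the fit and the clusters.

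The other 3 mesothelial calls were weaker. Adgb rose by 0.79 (SE 0.30, adjusted p = 0.0427) and passed under 2 of 7 alternatives, with adjusted p up to 0.516. Slc2a13 rose by 0.56 (SE 0.21, adjusted p = 0.0410) and passed under 3 of 7, with adjusted p up to 0.385. Eepd1 fell by 0.67 on the log2 scale (SE 0.22, adjusted p = 0.0173) and passed under 2 of 7, with adjusted p up to 0.808. None of these 3 changed direction under an alternative.

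FAPs, the progenitors of adipocytes, had 4 of the 9 genes past the threshold, where 17.2% of all genes passed. Enpep rose by 0.81 (SE 0.19, adjusted p = 0.00144) and passed under all 7 alternatives. Runx1t1 rose by 0.86 (SE 0.22, adjusted p = 0.00307) and passed under 5 of 7, with adjusted p up to 0.170. Both stood above the average of the other 4 types and not above each of them, since in replicate 2 the smooth muscle type was higher than FAPs for both genes and immune nuclei were higher for Enpep.

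B4galt6 and Lrrc4c were lower in FAPs. B4galt6 fell by 1.10 on the log2 scale (SE 0.32, adjusted p = 0.0101) and passed under 4 of 7 alternatives, with adjusted p up to 0.119. Lrrc4c fell by 0.76 on the log2 scale (SE 0.22, adjusted p = 0.00929) and passed under 3 of 7, with adjusted p up to 0.229. Both kept their direction under the alternatives.

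In endothelial nuclei, 1 of the 9 genes passed, where 14.4% of all genes did. It was Eepd1, which rose by 1.10 (SE 0.22, adjusted p = 0.000125) and passed under all 7 alternatives. Eepd1 stood at 27.4% and 50.7% of its adipocyte level there, below the highest adipocyte marker at 56.8% and 57.0%. The summed adipocyte markers stood at 18.6% and 28.7% in endothelial nuclei. In mesothelial nuclei, where Eepd1 was called lower, they stood at 14.6% and 12.4%. The part of adipocyte RNA in these calls was not tested. In the smooth muscle type, 1 of 9 passed, where 7.01% of all genes did, and this was Runx1t1 with a rise of 0.91 (SE 0.29, adjusted p = 0.0435) that passed under 2 of 6 alternatives, with adjusted p up to 0.348. Rgs7bp had its highest fitted change in that type, 1.09 (SE 0.38), with an adjusted p of 0.0769. That type has 27 nuclei in replicate 1, and whether this bears on the calls there was not tested.

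**Figure D5:**
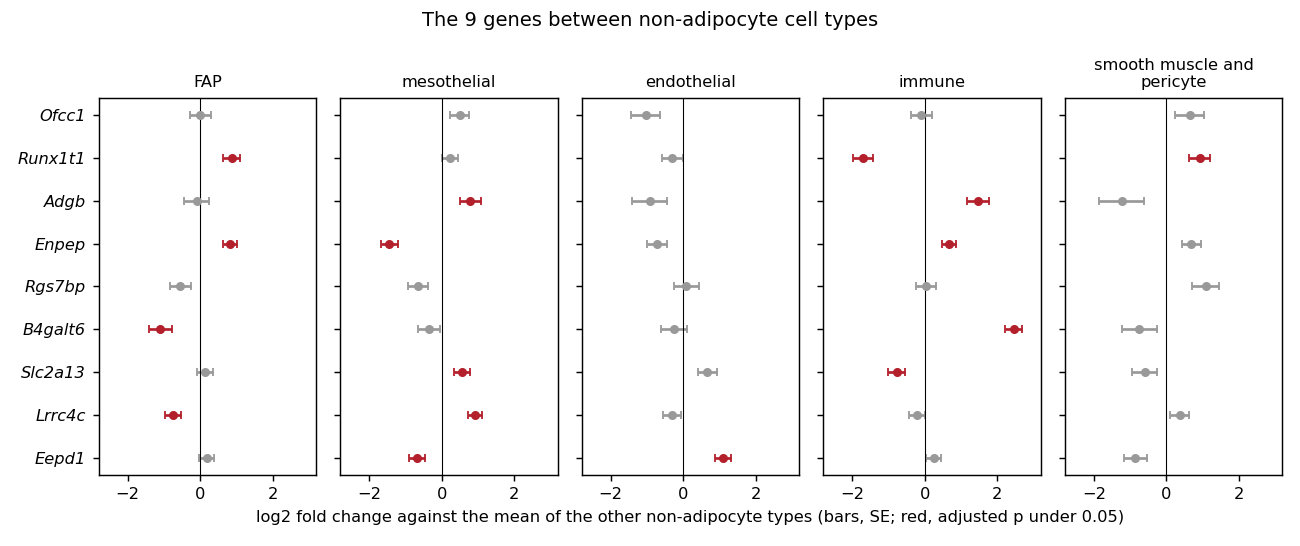
Log2 fold change with SE of the 9 genes in each non-adipocyte cell type against the mean of the other non-adipocyte types, from edgeR on both libraries; red points have an adjusted p under 0.05. B4galt6 in immune nuclei, at 2.45, lies farthest from 0.

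The rest of the transcriptome of Cidea nuclei gives the setting of the 9 genes. On UMIs summed per library, 765 of 14109 genes, or 5.42%, differed between Cidea nuclei and the other adipocyte-like nuclei at an adjusted p under 0.05, with 409 higher (2.9%) and 356 lower (2.52%). With the library as a block, this fit leaves 1 residual degree of freedom per gene before the spread is shared over genes. The p values and SE of this comparison rest on that shared spread. By DESeq2, which tested 40443 genes, 300 were called, 169 higher and 131 lower. In edgeR with no low-count filter, also over 40443 genes, 413 were called, 173 higher and 240 lower. Without the library as a block 13 were called, 13 higher and 0 lower. Cidea itself, which defines the groups, is among the 13 and the 765. The fitted log2 changes of the 9 genes ran from -2.08 for Slc2a13 to -0.84 for Ofcc1, beside a median of -0.05 over all genes, and they stand without a p since the genes were chosen on this contrast.

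The thermogenic programme rose in Cidea nuclei, with 22 of 23 tested genes called higher and none lower, and a median log2 change of 2.25. Ucp1 had 168 and 163 CPM in Cidea nuclei against 10.4 and 8.32 in the others (log2 change 4.15, SE 0.24, adjusted p = 2.48e-65). Esrrg, a nuclear receptor of oxidative metabolism, had 477 and 558 CPM against 41.1 and 63.5 (3.26, SE 0.17, adjusted p = 1.49e-78). The study named Cidea, Acacb and Ppara of this list from these samples among others, so the direction of the list is no independent evidence. Acot11, a thioesterase of thermogenic fat, had 358 and 236 CPM against 17.9 and 24.7 (3.65, SE 0.19, adjusted p = 2.92e-76), and Pank1, a kinase of coenzyme A synthesis, 229 and 238 against 31.7 and 51.9 (2.41, SE 0.19, adjusted p = 4.14e-34). In edgeR without the library as a block, the adjusted p was 0.00209 for Ucp1, 0.00610 for Acot11, 0.00961 for Esrrg and 0.0297 for Pank1.

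The list of white adipocyte genes fell in part, with 11 of 15 tested genes lower, none higher and a median log2 change of -0.71. Without the library as a block, 0 of all 14109 genes were called lower, those of this list included. Tshr, the thyrotropin receptor, had 480 and 485 CPM in Cidea nuclei against 1368 and 1212 (-1.45, SE 0.15, adjusted p = 1.03e-18), and it too was named by the study. Nnat, neuronatin, had 79.5 and 19.9 CPM against 230 and 72.7 (-1.75, SE 0.23, adjusted p = 1.10e-11). Slc7a10, an amino acid transporter of white adipocytes, had 251 and 162 against 543 and 329 (-1.11, SE 0.16, adjusted p = 2.79e-09). Trabd2b, an inhibitor of Wnt proteins, had 422 and 452 against 784 and 734 (-0.83, SE 0.15, adjusted p = 4.16e-06).

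Of the genes shared by all adipocytes, 5 of 19 were called, 2 of them higher and 3 lower, beside 5.42% of all genes. Their median log2 change of -0.03 covers changes in both directions. Pck1, an enzyme of glyceroneogenesis, had 272 and 294 CPM against 189 and 111 (0.99, SE 0.17, adjusted p = 2.83e-07). Gpd1, which makes glycerol phosphate, had 2116 and 1368 against 1229 and 729 (0.80, SE 0.14, adjusted p = 2.04e-06). The adipokine gene Adipoq had 691 and 201 CPM against 966 and 352 (-0.70, SE 0.15, adjusted p = 0.000262), and the lipid droplet gene Cidec 749 and 669 against 1118 and 872 (-0.52, SE 0.15, adjusted p = 0.0115). Cidec passed under 3 of 6 alternatives. None of these 4 genes passed without the library as a block.

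Around each of the 9 genes except Ofcc1, a list of functional partners was read in the same comparison. Of the R7 RGS complex around Rgs7bp, 3 of 8 tested genes rose and 1 fell, with a median of -0.51. Gnao1, a G protein subunit, had 79.5 and 161 CPM against 16.4 and 27.9 (2.41, SE 0.23, adjusted p = 1.84e-22), and Rgs7, the partner that Rgs7bp anchors, 771 and 1450 against 406 and 777 (0.87, SE 0.15, adjusted p = 4.05e-07). Gnai1, another G protein subunit, had 138 and 105 CPM against 230 and 193 (-0.86, SE 0.18, adjusted p = 0.000123). Rgs7 was thus higher in the nuclei in which its anchor was detected less often. The adenosine receptor gene Adora1 had 113 and 85.0 CPM against 60.2 and 54.2 (0.71, SE 0.21, adjusted p = 0.0215) and passed under 2 of 6 alternatives, with adjusted p from 4.09e-05 to 0.809.

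The partners of B4galt6 in glycosphingolipid synthesis had 1 of 12 tested genes called, with a median of -0.25. That was Cers6, a ceramide synthase, with 18.4 and 23.7 CPM against 65.0 and 80.7 (-1.81, SE 0.28, adjusted p = 2.52e-08). Of the inositol genes around Slc2a13, 1 of 8 was called, with a median of 0.37, and Impa2, which frees inositol from its phosphate, had 52.0 and 50.5 CPM against 8.70 and 11.5 (2.25, SE 0.34, adjusted p = 6.93e-09). Of the renin-angiotensin genes around Enpep, 1 of 8 was called, with a median of -0.01, and Mme, a peptidase known as neprilysin, had 184 and 186 against 68.8 and 111 (0.97, SE 0.18, adjusted p = 1.05e-05). The other tested genes of these 3 lists were not called, and beside 5.42% of all genes called, a single call says little about a list.

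Of the netrin-G ligand genes around Lrrc4c, 1 of 6 rose and 1 fell, with a median of -0.75. Ptprd, a receptor phosphatase, had 1291 and 1632 CPM against 782 and 1215 (0.52, SE 0.14, adjusted p = 0.00834), and it passed under 2 of 6 alternatives, with adjusted p up to 1.00. Ntng2, a netrin-G, had 9.18 and 25.3 against 43.7 and 42.4 (-1.08, SE 0.31, adjusted p = 0.0150). Lrrc4c binds netrin-G1, while netrin-G2 is the partner of its relative Lrrc4. Of the list around Runx1t1, which holds CBFA2T and RUNX genes and genes that act with them, 2 of 10 rose, with a median of 0.07. Cebpb, which belongs to neither family and is a factor of early adipogenesis, had 278 and 156 against 163 and 68.5 (0.96, SE 0.17, adjusted p = 3.46e-06), and Cbfa2t3, a relative of Runx1t1, 55.1 and 8.42 against 5.97 and 5 (1.91, SE 0.54, adjusted p = 0.0105), a rise that rests mostly on replicate 1 and passed under 2 of 6 alternatives, with adjusted p up to 0.657.

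Of the cholesterol efflux genes around Eepd1, 1 of 6 fell, with a median of -0.27. Apoe had 333 and 100 CPM in Cidea nuclei against 574 and 118 (-0.55, SE 0.17, adjusted p = 0.0217) and passed under 2 of 6 alternatives, with adjusted p from 0.0118 to 1.00. Apoe is also a gene of macrophages, and the part of macrophage RNA in its level in adipocyte-like nuclei was not tested. Of the globins around Adgb, 0 of 5 passed in edgeR, with a median of 0.29, and the most abundant, Hbb-bs, had 9.18 and 9.95 CPM against 3.07 and 10.3 (0.29, SE 0.61, adjusted p = 0.934).

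Of the 24 called genes named from these lists, Esrrg, Acot11, Ucp1 and Pank1 passed under all 6 alternatives. The other 20 missed the threshold without the library as a block, with adjusted p from 0.0644 to 1.00, and passed under 2 to 5 of the 6. The direction of all 24 was the same under the 6 alternatives.

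Markers of other cell types moved with this comparison in part. The 10 FAP markers summed to 575 and 389 CPM in Cidea nuclei against 1105 and 589 in the others, led by Dcn in the former and by Col15a1 in the latter, with none at 0. The 8 macrophage markers summed to 91.8 and 112 CPM against 163 and 157, led by F13a1 and Mertk in Cidea nuclei and by Mertk in the others, with Cd68 at 0 in Cidea nuclei of replicate 1. The lists of mesothelial, lymphatic, epithelial and Schwann cells were also lower in Cidea nuclei in both libraries, and those of dendritic and red blood cells higher. Scrublet doublet scores averaged 0.0794 and 0.0890 in Cidea nuclei against 0.0980 and 0.103. With the top 6% of doublet scores removed, the ratio of shares was 0.411 against 0.432, and all 9 genes were lower in both libraries. Then 752 genes were called, 717 of them among the 765. The part of the other cell types in the results was not tested.

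The non-member genes most like the 9 were found by the correlation of their levels with the mean profile of the 9 genes over 9 points, the 4 adipocyte subclusters and the 5 non-adipocyte types. Among 7497 genes, the highest Pearson r was 0.936 for Gm31517, a non-coding gene, followed by 0.927 for Jakmip3, 0.922 for Tmem150c, 0.902 for 2610016A17Rik and 0.901 for Cep128. Then came Gm36860 (0.866), Nnat (0.862), Gm2415 (0.840), Agt (0.838) and Cdr2 (0.831). The points share the libraries and differ in depth, so these values only describe. Gm31517 had 39.8 and 27.6 CPM in Cidea nuclei against 174 and 107 in the other adipocyte-like nuclei. The choice of these 10 genes used the Cidea-rich subcluster, so their levels in Cidea nuclei are a description. In replicate 1 Gm2415 had 24.5 CPM in Cidea nuclei against 20.3 in the others. The detection ratio of 2610016A17Rik, as the mean of both libraries, was 1.34.

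Over the same 9 points, the correlation of each of the 9 genes with the mean of the other 8 ranged from 0.471 for Lrrc4c to 0.740 for Rgs7bp. The low level of each in the Cidea-rich subcluster, which comes with their choice, enters these values.

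What the choice did not use includes gene structure. All 9 are protein-coding genes found by Ensembl identifier in GENCODE vM39 on GRCm39, on 8 chromosomes, with Ofcc1 and Rgs7bp both on chromosome 13. None overlaps another protein-coding gene. Their spans ran from 61.9 kb for B4galt6 to 1314 kb for Lrrc4c, with a median of 150 kb, and all 9 exceeded the median of 33.1 kb over the 14048 matched genes of the 14109 tested. Exons cover 0.452% of Lrrc4c and 12.2% of Enpep, the lowest and highest shares. Genes called lower in Cidea nuclei had a median span of 75.5 kb and genes called higher 42.3 kb, and whether length bears on the counts was not tested.

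Promoter sequence was read as a description, since the shared fall of the 9 genes was fixed by their choice. RefSeq promoters (GRCm38.p6) were found for 7 of the 9 genes by symbol, and the 250 bases before the start were searched on both strands. The letters AGGTCA of nuclear receptors, TCAAGGTCA of the ERR receptors to which Esrrg belongs (which contains the former), CCCNNGGG of EBF factors and TTGCGCAA of C/EBP factors were in 0 of the 7. Over all 32851 promoters, 14%, 0.387%, 11.8% and 0.164% hold them, in that order, and 24.6% hold at least 1. After this was seen, the GC box, with the letters GGGCGG, and the TATA box, with the letters TATAAA, were added, which 32.7% and 12.4% of all promoters hold. Of the 7 genes, 2 hold the former and 1 the latter.

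The 3 promoters printed are those that hold an added motif, chosen after this was seen, and capitals mark the GC and TATA box letters on either strand. Eepd1 (chr9:25481347-25481596, plus strand) has 6 matches to the GC box, some of them overlapping, Slc2a13 (chr15:91573262-91573511, minus strand) has 2, and Enpep (chr3:129332750-129332999, minus strand) has 1 match to the TATA box. A match describes letters and shows no binding.
Eepd1: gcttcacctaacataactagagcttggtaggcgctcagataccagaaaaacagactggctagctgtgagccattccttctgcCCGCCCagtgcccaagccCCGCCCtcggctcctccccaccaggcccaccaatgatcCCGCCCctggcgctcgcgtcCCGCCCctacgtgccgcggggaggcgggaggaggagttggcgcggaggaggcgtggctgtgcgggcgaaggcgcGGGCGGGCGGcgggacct
Slc2a13: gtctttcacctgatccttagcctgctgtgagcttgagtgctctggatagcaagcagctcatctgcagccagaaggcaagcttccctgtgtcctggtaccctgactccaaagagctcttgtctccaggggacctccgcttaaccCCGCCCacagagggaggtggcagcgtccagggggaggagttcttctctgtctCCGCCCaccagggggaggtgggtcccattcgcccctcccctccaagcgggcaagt
Enpep: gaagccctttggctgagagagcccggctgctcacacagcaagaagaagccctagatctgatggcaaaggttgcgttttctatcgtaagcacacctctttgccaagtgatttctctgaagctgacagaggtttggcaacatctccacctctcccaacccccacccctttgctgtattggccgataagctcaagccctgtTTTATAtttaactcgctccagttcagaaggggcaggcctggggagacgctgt
The bases G and C made up 68.8% of the Eepd1 window, 61.2% of that of Slc2a13 and 52.4% of that of Enpep, beside a median of 52.4% over all promoters. The other 4 promoters hold none of the motifs, and their share of G and C ran from 35.6% to 52.4%. The windows thus differ in composition, and no motif searched is in all of them.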

How the data were processed

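Nuclei of visceral fat from 2 mice were analysed. The authors aligned reads to GRCm39 with CeleScope, and the deposited matrices hold counts, as whole UMIs per gene and called nucleus, without normalization. The deposited totals per barcode and downsampling tables were not used here.

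The members, lists and tests were chosen with earlier results of these data known. Kept nuclei had above 500 genes and 1000 UMIs, with mitochondrial UMIs under 15%. With 1000 variable genes (81 genes left out, among them the members and those the paper names), 30 components and Harmony written in numpy 2.4.6, a graph of 20 neighbours was clustered by Leiden at resolution 0.1 (leidenalg 0.10.2 with igraph 0.11.9), then adipocytes alone with 16 components at 0.3. A type needed at least 3 markers and a share of 0.5 of its list raised by a log2 fold of 2 (1 for adipocytes) over the median of the other clusters and seen in at least a share of 0.05 of nuclei, with a rival weighed at a share of 0.8. Subclusters with markers of another type stayed unnamed. After clusters had been seen, 2 rules for variable genes, 2 graphs, 2 subcluster resolutions and 3 naming rules were tried. The levels of Cidea and Eepd1 per subcluster were in view then, while the detection ratios had not been computed.

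Scrublet (scanpy 1.11.5) marked 1 nucleus in each library, and none was removed, except in an alternative without the top 6% of scores. The seed was 1, with Python 3.11.15, scipy 1.17.1, scikit-learn 1.9.0, pandas 2.3.3 and matplotlib 3.10.9. Sums per library and type were tested in R 4.3.3 with edgeR 4.0.16 (TMM, filterByExpr, quasi-likelihood F test, library as block, Benjamini-Hochberg over all genes tested), in groups of at least 20 nuclei per library, and with DESeq2 1.42.0 as an alternative. On simulated counts, edgeR called 47.5% of true 2-fold and 94% of true 4-fold changes in the Cidea comparison, with 4.08% of calls false. These counts had a common spread for all genes and no difference between libraries. They therefore do not give the share of false calls in the real comparison. The SE of a log2 change is its size over the square root of F. Clusters were drawn from the counts then tested, so p values describe the separation of types, and 2 mice limit every test. Shares have exact Clopper-Pearson and levels exact Poisson 95% intervals, for counting error only, with a floor of 3 counts for a count of 0.

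Named were the members, Cidea, up to 4 genes per fixed list (lowest adjusted p among called genes, else the most abundant) and the 10 genes most like the members. The symbol Asc1 was not in the files. Alternatives changed the thinning depth (2000 UMIs), the definition of a Cidea nucleus, the mitochondrial limit, doublets, Harmony, the resolution, the test, the filter, the block and the libraries used.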

Additional observations from a re-analysis of the deposited data

How the results depend on the processing

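All 9 genes had lower shares in Cidea nuclei in both libraries under each of the 10 alternatives that kept both libraries, and all 9 were lower in each library alone. The genes were chosen from these same libraries as lower in Cidea nuclei, so this agreement is no independent evidence. It also counts small gaps, such as 11.6% against 11.7% for Ofcc1 in replicate 1 with no thinning. The ratio of shares, 0.432, stayed between 0.301 and 0.580 under 11 of 12 alternatives, among them 0.332 to 0.548 for 1 library left out at a time, and was 0.738 with no thinning, which also defined Cidea nuclei before thinning. The median share in Cidea nuclei, 3.71%, was 7.49% at 2000 UMIs, 6.22% with Cidea nuclei defined before thinning and 18.2% with no thinning. The alternatives with no thinning and without the shallow adipocyte subcluster were chosen after seeing the data. The number of genes highest in adipocyte-like nuclei, 4, was 2 with a mitochondrial limit of 5%, 3 without Harmony, and 5 to 6 with 1 library left out. The number of the 9 genes called between non-adipocyte types, 7, was between 5 and 8 under all 7 alternatives. The number of genes called between Cidea nuclei and the others, 765, was 300 by DESeq2, which tested 40443 genes. It was 413 with no low-count filter, also over 40443 genes, and 13 with no replicate block. It was 1486 with the Cidea-rich subcluster in place of a Cidea UMI. With a mitochondrial limit of 5% it was 448, and without the top 6% of doublet scores 752. The cause was not tested. Leaving out a library was not run for the tests between cell types, since 1 library leaves no residual degrees of freedom. Few Cidea nuclei, 83 in replicate 1, limit the precision of each share.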

Other observations

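Some nuclei of the adipocyte cluster were left unnamed and are not in the adipocyte values. A subcluster of 228 nuclei carried mesothelial markers, with a mean doublet score of 0.273, and a subcluster of 195 nuclei carried markers of endothelial cells and FAPs. Another 27 nuclei, 9 in replicate 1 and 18 in replicate 2, stayed among the adipocyte-like nuclei but were too few for a subcluster of their own in the values above. They were led by interferon-induced genes such as Mx2, Ifit1 and Rsad2, which were named after their values were seen. Eepd1 stood at 367 CPM in the mesothelial-marked subcluster, 370 CPM in the endothelial-marked one and 420 CPM in the interferon one, against 209 CPM in the Cidea-rich subcluster, over both libraries summed.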
